A study of Arabidopsis thaliana with 3 samples.

Results

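LEA4-5 (AT5G06760) and AT3G02480 encode late embryogenesis abundant (LEA) proteins of Arabidopsis thaliana. Each was found by its symbol or locus code among the 13513 probe sets that name 1 gene, and each had 1 probe set, so the 2 genes are 2 of 13356 genes named on the array. They were chosen with their signals on these arrays known, so their signals and ratios are a description and no test of them was made. LEA proteins are small, very hydrophilic proteins that accumulate in maturing seeds and, in leaves, under drought, salt or freezing or after abscisic acid is given. Ice forming between cells draws water out of them, so freezing is also a dehydration stress, and many LEA genes are switched on through abscisic acid and the bZIP factors that bind its response element. LEA4-5 belongs to the LEA_1 group (also called group 4), disordered proteins that protect enzymes from drying in vitro. AT3G02480 belongs to the LEA_4 group, has also been called ABR (abscisic acid response protein), and has been linked to dark-induced leaf senescence under the transcription factor ABI5.

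The arrays came from all aerial parts of Col-0 plants, the reference accession. After 2 days of stratification, these had reached growth stage 1.14 at 20 °C under 9 h of light and 15 h of dark. All plants, including those of the control, were then acclimated at 4 °C for 11 days under the same cycle. The cold-acclimated control was harvested at hour 5 of the light period. For recovery, plants went into 20 h of freezing when the light period ended (the labels give 6.0 °C, with no minus sign), and were then kept at 20 °C in darkness and harvested after 3 h or 24 h. Each group had 1 Affymetrix ATH1 array, a chip carrying a set of short probes for each gene, and the sources used here do not give the number of plants behind an array. The titles call each array replicate 3, and no other replicate was available here. The control differs from both recovery arrays in freezing, temperature and light at harvest, which cannot be told apart, and darkness and hour of the day differ with recovery time. In these whole shoots, a change in the share of one cell type and a change in RNA per cell cannot be told apart.

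The values are MAS5 signals, linear intensities per probe set that the authors deposited, scaled here to a common 2% trimmed mean of 100. Signals under a floor of 16.1, the 30th percentile of all Arabidopsis signals, were set to it before a ratio was taken, so a ratio against a signal under the floor is a lower bound. The median Arabidopsis signal was 42.6 (cold-acclimated), 39.5 (3 h) and 42.8 (24 h). With 1 array per group no ratio has a replicate check or a p-value. The error these arrays hold is the disagreement between 2 probe sets of the same gene, whose SD for 1 probe set was 0.33 log2 units at 3 h against the control and 0.40 at 24 h against the control (76 genes each), and 0.35 at 24 h against 3 h (75 genes). These genes had both probe sets at or above the floor on both arrays, so the SD does not cover a ratio that is a bound. This error leaves out the spread between plants. It also leaves out differences between arrays and RNA preparations, which both probe sets of a gene share. Some pairs differed by far more than the SD. The largest difference was 1.83 at 3 h against the control, 1.76 at 24 h against the control and 1.61 at 24 h against 3 h. In these comparisons 4, 6 and 3 genes differed by at least 1.

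LEA4-5 had a signal of 31.5 on the cold-acclimated array, 209.8 after 3 h of recovery and 122.0 after 24 h. It was thus highest at 3 h and lowest on the control, and it lay above the floor on all 3 arrays. In order of brightness among the 22746 Arabidopsis probe sets, it stood above 43.2% on the control, above 85.9% at 3 h and above 75.3% at 24 h. Such a rank describes the brightness of a probe set and does not order transcripts by abundance.

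AT3G02480 had a signal of 11.0 on the cold-acclimated array, which is under the floor, 39.3 after 3 h and 171.6 after 24 h. Its order was therefore different from that of LEA4-5, with the highest signal on the last array. Its probe set stood above 23.8% of Arabidopsis probe sets on the control, above 49.9% at 3 h and above 82.4% at 24 h. The signal at 3 h was about the array's median (0.99 times it), and that at 24 h was 4.01 times the median of its array.

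**Figure D1:**
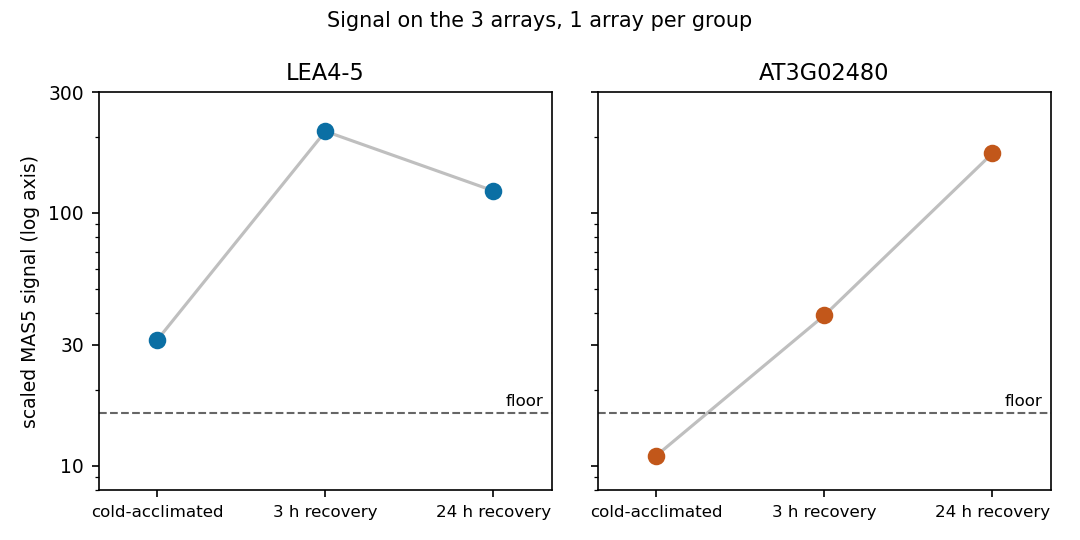
Scaled MAS5 signal (log axis) of LEA4-5 and AT3G02480 on the cold-acclimated, 3 h and 24 h arrays; each point is 1 array, the grey line joins the arrays and the dashed line is the floor of 16.1. LEA4-5 is highest at 3 h (209.8), whereas AT3G02480 starts under the floor and is highest at 24 h (171.6).

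Early recovery was read from the 3 h array against the cold-acclimated control. LEA4-5 was at 209.8 at 3 h, against 31.5 on the control, a 6.66-fold difference (log2 ratio 2.74, beside a probe set SD of 0.33). AT3G02480 was at 39.3 at 3 h, against 11.0 on the control, which is at least 2.43-fold higher (log2 ratio 1.28 against the floor). Both were thus at least 2-fold higher, as were 6.11% of the 16769 probe sets measured on either array; the members were picked with these ratios known, so nothing is read from their count. A ratio as high as that of LEA4-5 or higher was found in 151 probe sets (0.900%), some of them bounds themselves; no such rank is given for AT3G02480, whose ratio is a bound. The call for AT3G02480 rests on a dim signal: its log2 ratio was 0.97 with scaling to the bacterial hybridization controls and 0.24 with the floor at the 45th percentile, both under 2-fold.

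Late recovery was read from the 24 h array against the same control. AT3G02480 was at 171.6 at 24 h, against 11.0 on the control, at least 10.6-fold higher (log2 ratio 3.41 against the floor). The probe set SD of 0.40 does not cover this bound. LEA4-5 was at 122.0 at 24 h, against 31.5 on the control, 3.88-fold higher (log2 ratio 1.95), a ratio matched or passed by 309 of 16965 measured probe sets (1.82%). Of all measured probe sets, 8.56% passed 2-fold upward at 24 h. Because both comparisons use the same control array, an error of that array would enter the ratios of both times. Raising the floor to the 45th percentile left AT3G02480 a bound of 2.37 on the log2 scale, and without any floor its log2 ratio was 3.97.

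Setting 24 h against 3 h involves no control and, for both genes, no floor. AT3G02480 was at 171.6 at 24 h, against 39.3 at 3 h, 4.37-fold higher (log2 ratio 2.13, beside a probe set SD of 0.35); 301 of 16968 measured probe sets (1.77%) had a ratio as high as this or higher, where 10.7% passed 2-fold upward. LEA4-5 was at 122.0 at 24 h, against 209.8 at 3 h, and so lay within 2-fold (log2 ratio -0.78); 8.67% of probe sets were at least 2-fold lower. Its ratio was as low or lower in 12.7% of measured probe sets. The log2 ratios of AT3G02480 and LEA4-5 differed by 2.91 in this comparison. LEA4-5 thus had the same order, 3 h above 24 h above control, under every setting tried, but its signals at 3 h and 24 h were less than 2-fold apart in each of them (log2 ratios -0.90 to -0.53).

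**Figure D2:**
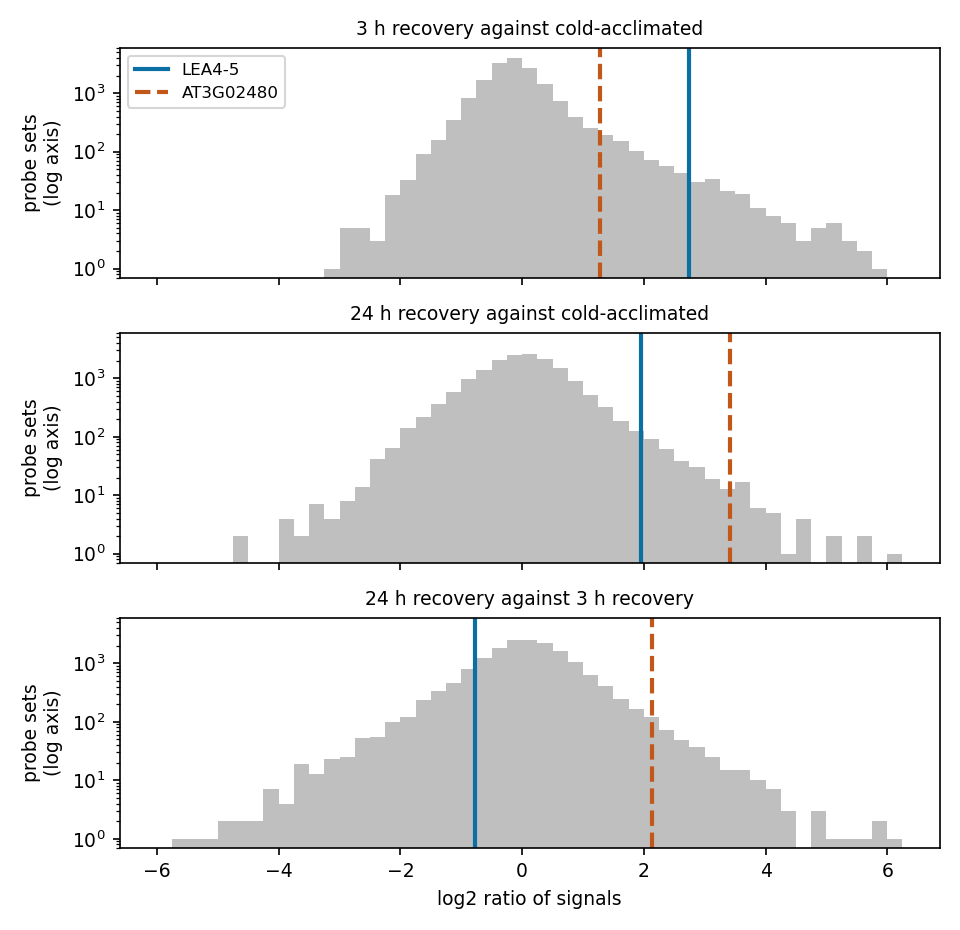
Number of probe sets (log axis) by log2 ratio of signals for each of the 3 comparisons, over all Arabidopsis probe sets measured on either array, with LEA4-5 (solid line) and AT3G02480 (dashed line) marked. At 3 h LEA4-5 lies further to the right (2.74 against at least 1.28), at 24 h AT3G02480 does (at least 3.41 against 1.95), and between 24 h and 3 h they lie on opposite sides of 0 (2.13 and -0.78).

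Both genes were then set beside the rest of the LEA family. Of 51 LEA genes listed by locus code, 35 had a probe set that names 1 gene; the other 16 are not analysed here. Of the 35, 18 lay under the floor on all 3 arrays, with signals between 0.39 and 16.1, and 17 reached the floor on at least 1. Counts over the measured members describe those genes and not the family, since a gene under the floor on the control could only enter through a higher signal. Without LEA4-5 and AT3G02480, 11 were measured at 3 h or on the control, of which 2 were at least 2-fold higher at 3 h and 0 lower (median log2 ratio 0.28, with 2 bounds). Over all probe sets 6.11% were higher and 3.95% lower, with a median of -0.14. Without the same pair, 14 were measured at 24 h or on the control, of which 2 were higher and 2 lower (median 0.02, with 5 bounds), beside 8.56% higher and 8.47% lower over all probe sets (median 0.01). Between 24 h and 3 h, 1 of 15 was higher and 5 were lower (median -0.34, with 5 bounds), beside 10.7% higher and 8.67% lower over all probe sets (median 0.07). With the pair counted, 4 of 13 were higher at 3 h (median 0.80), 4 of 16 at 24 h (median 0.13) and 2 of 17 between 24 h and 3 h. In that fuller count, scaling to the hybridization controls left 1 gene higher at 3 h, LEA4-5, with a median of -0.06. The median at 24 h was then -0.22, or -0.018 with the 45th percentile floor.

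Within the LEA_1 group, the 2 relatives of LEA4-5 stayed under the floor. LEA4-1 (AT1G32560) was at 0.98 on the control, 1.65 at 3 h and 1.45 at 24 h. LEA4-2 (AT2G35300, named LEA18 in RefSeq) was at 0.76, 2.57 and 0.40 on the same arrays. No ratio can be given for either, so LEA4-5 alone of the 3 LEA_1 genes can be compared between arrays.

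The LEA_4 group of AT3G02480 had 15 of 18 genes on the annotation, of which 9 were under the floor on every array. Besides AT3G02480, the measured ones were COR15A and COR15B, chloroplast proteins of the cold regulon, and AT2G03850, AT3G17520 and AT4G13230, all dim. COR15A was at 1780 at 24 h, against 3968 on the control, and COR15B at 545.4, against 2369 on the control, both at least 2-fold lower, where AT3G02480 was higher. AT3G17520 was at 29.8 and AT2G03850 at 23.4 at 24 h, against 1.16 and 1.61 on the control; against the floor these are at least 1.85-fold and at least 1.45-fold higher, bounds that do not show whether 2-fold was passed. AT4G13230 reached 16.6 at 3 h, just over the floor, and was under it at 24 h (7.84) and on the control (12.3).

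Dehydrins, LEA proteins with a lysine-rich repeat that bind membranes and other proteins, had 4 measured genes, and all 4 were brightest at 3 h. COR47 was at 3852 at 3 h, against 1288 on the control (log2 ratio 1.58), and the dim AT4G38410 at 46.0, against 22.1 (1.06). LTI30 was at 4961 at 3 h, against 2845 on the control, and HIRD11 (AT1G54410) at 3973, against 3757, both within 2-fold. Whether HIRD11 is brightest at 3 h depends on the scaling, and no share of all probe sets by brightest array was taken. At 24 h none of the 4 measured dehydrins was 2-fold from the control, where 8.56% of all probe sets were higher and 8.47% lower. COR47, LTI30 and AT4G38410 were below their 3 h signal by at least 2-fold at 24 h, as were 8.67% of all probe sets. With 4 genes, nothing is read from these counts. LEA4-5 shared the higher signal at 3 h with COR47 and AT4G38410, but it alone among these 3 was still at least 2-fold above the control at 24 h. With scaling to the bacterial hybridization controls, COR47 and AT4G38410 were less than 2-fold higher at 3 h.

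The remaining measured LEA genes were spread. AT2G23120, of the PvLEA18 group, was at 3974 at 3 h, against 2055 on the control, which is 1.93-fold. Its relative AT2G23110 was at 29.0 at 3 h and 37.5 at 24 h, against 7.63 on the control, at least 1.80-fold and at least 2.32-fold higher. AT2G46140 (LEA27), of the LEA_2 group, was at 33.9 at 24 h, against 15.9 on the control, with a log2 ratio of at least 1.07. AT2G44060 (LEA26) was at 930.8 at 3 h and 734.6 at 24 h, against 767.0 on the control, and drought-induced DI21 at 150.1 and 99.4, against 163.4. M17, a gene of late seed maturation, was at 26.6 at 24 h and under the floor on the control (2.53).

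Of the 17 LEA genes that reached the floor, 10 were brightest at 3 h, LEA4-5 among them, 6 at 24 h, AT3G02480 among them, and 1 on the control. All 6 that were brightest at 24 h lay under the floor on the control, and their signals at 24 h ran from 23.4 to 171.6. Of the 10 brightest at 3 h, 1 lay under the floor on the control, and their 3 h signals ran from 16.6 to 4961. Some were close to the control at 3 h: HIRD11 (1.06-fold), COR15B (1.07-fold), COR15A (1.15-fold) and AT2G44060 (1.21-fold). Their place among the 10 depends on the scaling, since the hybridization controls were 1.70-fold brighter at 3 h than on the control. No share of all probe sets by brightest array was taken, so nothing is read from these counts. Among the 10 LEA genes at or above the floor on every array, 3 passed 2-fold upward against the control at 3 h, and at 24 h 1 did so, LEA4-5, while 2 (COR15A and COR15B) passed it downward. The share over all probe sets was taken for a wider set, those measured on either array. There 6.11% were higher and 3.95% lower at 3 h, and 8.56% higher and 8.47% lower at 24 h. With scaling to the hybridization controls, LEA4-5 was the only LEA gene at least 2-fold higher at 3 h.

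**Figure D3:**
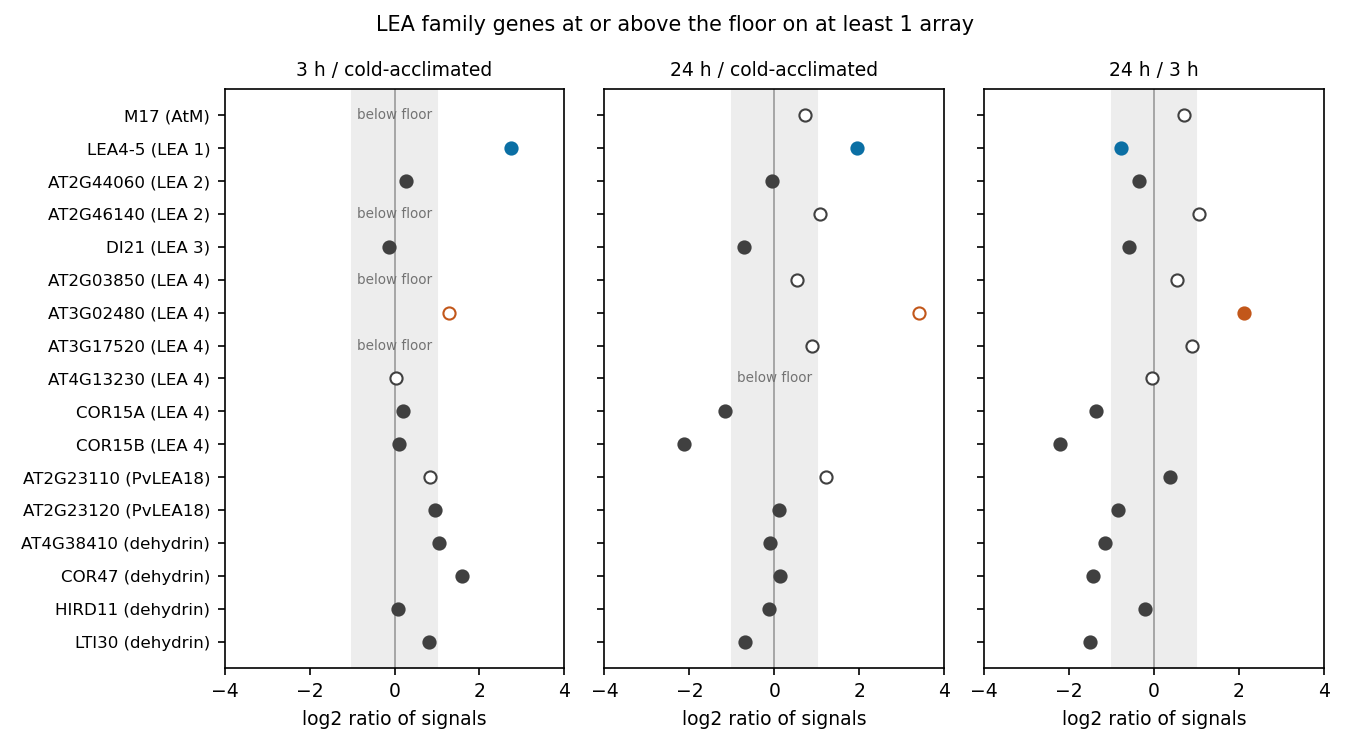
Log2 ratio of signals for the 17 LEA family genes that reached the floor, in the 3 comparisons; filled points have both signals above the floor, open points are bounds with 1 signal at the floor, grey shading marks less than a 2-fold difference, LEA4-5 is blue and AT3G02480 orange. Among filled points the highest ratio is that of LEA4-5 at 3 h (2.74) and at 24 h (1.95). Between 24 h and 3 h it is that of AT3G02480 (2.13). Open points have no fixed place in this order. Both genes were picked with these ratios known, so nothing is read from their place.

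The genes nearest in pattern were found by the distance between their pairs of log2 ratios against the control at the 2 recovery times, over 3 arrays. The 6627 probe sets compared with LEA4-5, and the 6628 with AT3G02480, were those naming 1 gene and not marked as cross-hybridizing, above the floor on all arrays and with a brightest signal no lower than the overall median of 41.7. With 3 arrays such likeness describes 2 numbers per gene and no more. Nearest to LEA4-5 was AT2G44500, at 43.2 on the control, 320.6 at 3 h and 192.0 at 24 h (distance 0.25 log2 units). Next came the xyloglucan endotransglucosylase XTH19 (20.8, 163.7 and 88.2) and AT1G66760 (31.4, 256.1 and 118.6). AT1G73920, AT5G06570 and AT2G28400 followed at distances of 0.30 to 0.39, and 10 genes lay within 0.5.

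AT3G02480 itself lies under the floor on the control, so genes that share this were not among those compared, and the number of genes near it cannot be set against that for LEA4-5. Nearest of those compared was AT2G38870, a protease inhibitor gene, at 89.9 on the control, 272.2 at 3 h and 951.3 at 24 h (distance 0.32). The peroxidase PRX71 (AT5G64120) was at 36.0, 119.9 and 462.1, and the stress-induced aldehyde dehydrogenase ALDH7B4 at 278.1, 709.7 and 1880. AT1G22890, AT5G19120 and SIS (AT5G02020, named in RefSeq for salt induction) lay at distances of 0.69 to 0.76. Since the ratios of AT3G02480 are bounds, its true place in this order is not fixed.

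The genes next to each member on its chromosome were looked at in the same way. Of the 5 protein-coding genes on either side of LEA4-5, 5 had a probe set naming 1 gene and 3 were measured; 0 of the 3 were 2-fold from the control at 3 h or 24 h. The next gene, AT5G06770, was at 33.8 at 3 h and 38.9 at 24 h, against 46.5 on the control. Around AT3G02480, 6 of 10 neighbours had a probe set, and 0 of the 4 measured at 3 h and 0 of the 5 measured at 24 h were 2-fold from the control. On one side lies SAMDC, an S-adenosylmethionine decarboxylase of polyamine synthesis, at 3284 at 3 h and 3579 at 24 h, against 2878 on the control. On the other lies AT3G02490, at 65.9 and 60.7, against 88.4. Across the whole array, 6.11% of measured probe sets passed 2-fold upward at 3 h, and 3.95% passed it downward. At 24 h these shares were 8.56% and 8.47%. With only 3 to 5 neighbours measured, a count of 0 says little beside such shares, so nothing is read from it. The order of genes was taken from RefSeq assembly TAIR10.1. No coordinate is given, since the values name no genome build.

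The lists of the pathway that LEA genes answer to had no gene with a probe set naming it alone. These were abscisic acid signalling (0 of 23), abscisic acid metabolism (0 of 12) and dehydration response (0 of 30), and they are not analysed here. Of the leaf markers, 1 of 10 was on the annotation, Rubisco activase RCA, at 2990 at 3 h and 4068 at 24 h, against 3216 on the control, and of flower markers 0 of 7. Of seed storage and oil body genes 2 of 15 were, with a summed signal of 19.1 at 3 h and 22.2 at 24 h, against 17.1 on the control; the oleosin OLEO3 was near the floor (17.4 and 20.3, against 15.4) and AT3G01570 under it on each array. Root markers had 3 of 8, with a summed signal of 56.2 at 3 h and 119.6 at 24 h, against 58.5 on the control. Of these PYK10, a beta-glucosidase of roots and seedlings, was at 18.6 at 3 h and 106.0 at 24 h, against 15.8 on the control. It was at least 6.56-fold higher at 24 h, when AT3G02480 was higher too, but only at least 1.15-fold higher at 3 h. Most of the root sum at 24 h was PYK10. The root hair expansins went the other way: EXPA7 was at 22.5 at 3 h and 8.38 at 24 h, against 20.5 on the control. EXPA18 was at 15.1 and 5.28, against 22.3, so both were under the floor at 24 h. The part of PYK10 in the result was not tested.

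The 14 bacterial hybridization control probe sets, added in fixed amounts, were 1.70-fold brighter at 3 h and 1.43-fold brighter at 24 h than on the control after scaling. Scaling to them lowers a log2 ratio to the control by 0.77 at 3 h and by 0.52 at 24 h wherever the floor does not limit it. Scaled to them instead, LEA4-5 had log2 ratios to the control of 1.97 (3 h) and 1.44 (24 h), and AT3G02480 had 0.97 and 3.34, both bounds. Of the values tried, 10 of 10 kept LEA4-5 past 2-fold at each time and AT3G02480 past 2-fold at 24 h, and 8 of 10 kept AT3G02480 past it at 3 h.

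**Figure D4:**
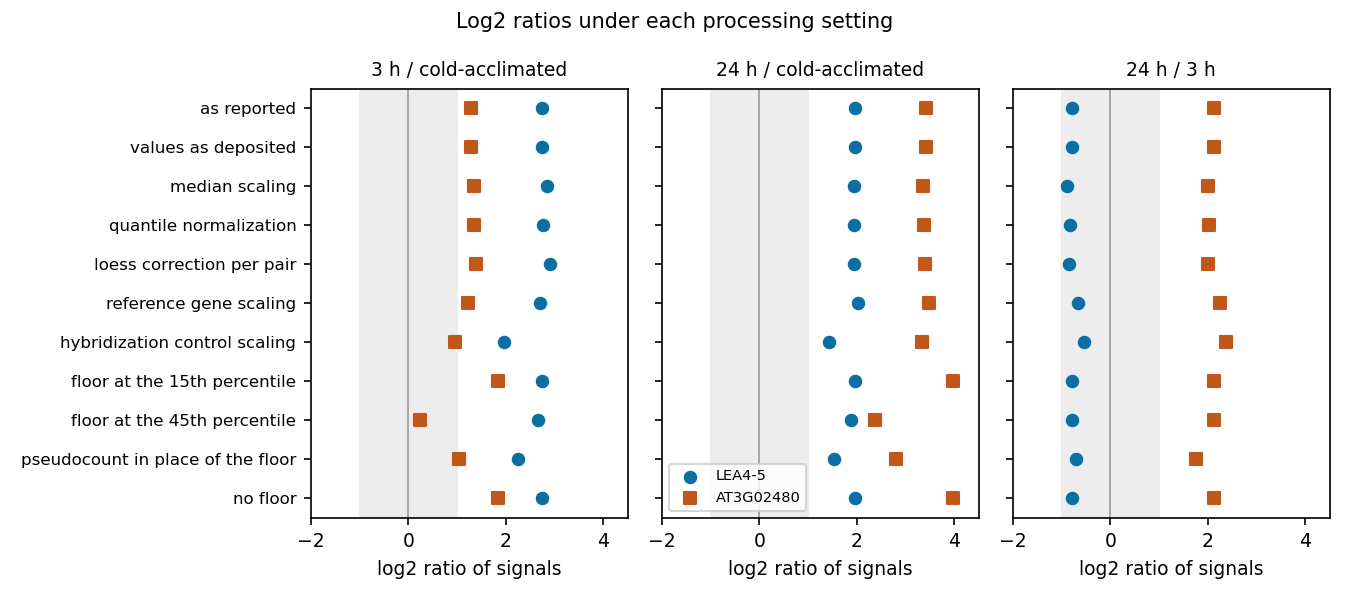
Log2 ratio of signals of LEA4-5 (circles) and AT3G02480 (squares) in the 3 comparisons, as reported and under 10 other processing settings; grey shading marks less than a 2-fold difference. AT3G02480 falls inside the shading at 3 h in 2 settings (0.97 and 0.24), and LEA4-5 lies inside it in every setting between 24 h and 3 h.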

How the data were processed

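The deposited values are signal intensities per probe set on a linear scale, which the authors made with MAS5, per the submitters' processing notes; its version and settings are not given in the sources used here. Detection calls were not used here. There were 3 arrays, 1 per group, so precision is limited by the number of arrays and no test was run. Of 22746 Arabidopsis probe sets, the platform annotation names 1 gene for 13513, several for 503 and none for 8730; symbols were updated through the RefSeq table of TAIR10.1.

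Arrays were scaled to a common 2% trimmed mean of 100 (already 100.0 as deposited), floored at the 30th percentile (16.1), and compared by log2 ratio; measured means at or above the floor on either array. The limit for a call was 2-fold. The members and lists were chosen with earlier results of these data known. Named were both members, all LEA family genes on the annotation that could be measured, members of the other lists past 2-fold or the brightest of each, and the 6 genes nearest in pattern to each member. Functions were checked on simulated data. Software was Python 3.11.15, numpy 2.4.6, pandas 2.3.3, scipy 1.17.1, statsmodels 0.14.6 and matplotlib 3.10.9.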

Additional observations from a re-analysis of the deposited data

Results flagged for a closer look

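Some control probe sets of the array, which the comparisons above do not use, were at least 2-fold brighter on a recovery array than on the cold-acclimated one. The set for 25S ribosomal RNA was 5.42-fold brighter at 24 h (1292, against 238.3 on the control). A ubiquitin set for the 5′ part of the transcript was 2.08-fold brighter at 3 h, and one for its middle part 2.15-fold brighter at 24 h. Each group held 1 array, so none was set against others of its group.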

How the results depend on the processing

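No ratio of LEA4-5 or AT3G02480 changed direction in any of 10 other settings, some of which could not change a ratio. No paired analysis was possible because each group held 1 array. The setting without a floor was chosen after seeing the data; the cause of each change was not tested beyond what the setting itself does. With scaling to the hybridization controls, LEA4-5 was at 1.97 (3 h) and 1.44 (24 h) against the control; with a pseudocount of 16 it was at 2.25 and 1.54. AT3G02480 was at 1.84 (3 h) and 3.97 (24 h) with the floor at the 15th percentile or with no floor, at 0.24 and 2.37 with the 45th percentile, and at 2.80 (24 h against the control) and 1.76 (24 h against 3 h) with the pseudocount.

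Counts of LEA genes moved with the floor. With the 15th percentile, 8 were at least 2-fold higher and 1 lower at 3 h, 8 were higher at 24 h, and 6 were higher at 24 h than at 3 h. With the 45th these counts of higher genes were 2, 2 and 1. The number of LEA genes measured changes with the floor as well and is not given here, so no share is read from these counts. Over all probe sets, the 15th percentile moved the higher counts from 1024 to 1659 at 3 h and from 1453 to 2234 at 24 h. At 24 h against 3 h they went from 1813 to 2705. With hybridization control scaling 1 LEA gene was higher at 3 h and 4 LEA genes were lower at 24 h, and after loess 1 LEA gene was lower at 24 h. The LEA median at 24 h against the control was -0.22 with hybridization control scaling and -0.018 with the 45th percentile floor, and at 3 h it was -0.060 with that scaling.

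Over all probe sets at 3 h, 438 were higher and 6333 lower with hybridization control scaling, and 1659 higher and 1446 lower with the floor at the 15th percentile. Lower at 3 h were 435 after loess, 393 with the pseudocount and 403 with the 45th percentile floor. At 24 h against the control, 673 were higher and 3844 lower with hybridization control scaling, and 2234 higher and 2195 lower with the floor at the 15th percentile, where 2258 were lower at 24 h than at 3 h.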

Other observations

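A list of genes that RefSeq names for drought, cold regulation or likeness to the abscisic acid-induced barley protein HVA22 was put together once the annotation's genes and the LEA family signals had been seen. It held 5 genes outside the other lists, of which 4 were measured. SRC2, a cold-regulated protein with a calcium-binding domain, was at 2917 at 3 h and 718.7 at 24 h, against 355.2 on the control, 8.21-fold and 2.02-fold higher, so that its order over the arrays was that of LEA4-5. DI19, a drought-induced zinc-finger protein, was at 327.1 at 3 h and 832.8 at 24 h, against 409.7 on the control, 2.03-fold higher at 24 h. Both SRC2 and DI19 were thus only just past 2-fold at 24 h. Scaling to the hybridization controls lowers these log2 ratios by 0.52, which takes both under 2-fold. COR27 was lower, at 237.1 and 97.4, against 342.1 on the control. HVA22C was at 156.7 and 176.2, against 174.0, and DOR lay under the floor on every array.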
